A study of Mus musculus with 19 samples.

Results

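The erythroid genes described here are 34 genes of the red cell lineage, each taken as the gene whose symbol equals a name on a fixed list, out of 38887 genes counted in sorted myeloid cells of the mouse spleen. By role they are 4 adult globins, 5 genes of haem synthesis and its iron supply, 13 of the red cell membrane and its skeleton, 7 transcription, receptor and maturation genes, and 5 cytosolic enzymes. All 34 were in the table, and 32 passed the filter on low counts and were tested among 12943 genes. Tmod1 and Icam4 did not pass it. The study sequenced total RNA of myeloid-derived suppressor cells (MDSC), myeloid cells that restrain T cell responses, from the spleen, in newborns at 7 days of age and in adults of 6 to 8 weeks. The neutrophil-like form, PMN-MDSC, was taken as CD11b+ cells with Ly6G and intermediate Ly6C, and the monocyte-like form, M-MDSC, as CD11b+ cells with high Ly6C and no Ly6G. The protocols name a red cell lysis step, magnetic beads and a cell sort. There were 5 libraries of newborn PMN-MDSC, 6 of adult PMN-MDSC, 5 of newborn M-MDSC and 3 of adult M-MDSC. No genetic change or treatment is given for any of the 4 groups.

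Red cells arise from progenitors that respond to the hormone erythropoietin through its receptor, switch on GATA1, TAL1 and KLF1, and then fill with haemoglobin. Haemoglobin joins alpha and beta globin chains to haem, which is assembled in a chain of enzymatic steps that starts and ends in the mitochondrion. A skeleton of spectrin anchored by ankyrin to the anion exchanger band 3 gives the cell its shape. In the mouse the spleen is a blood-forming organ around birth, and makes fewer red cells in the unstressed adult. Several of the 34 genes, among them Urod, Fech, Cpox, Slc25a37, Nfe2, Blvrb and Prdx2, are also used by cells that are not erythroid, and Gata1 is also a gene of eosinophils, mast cells and megakaryocytes.

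Libraries came from 2 batches, 10 in batch 1 and 9 in batch 2. Total counts ran from 2314868 to 39578510 in newborn PMN-MDSC, 827744 to 45135933 in adult PMN-MDSC, 1785402 to 23344379 in newborn M-MDSC and 1818926 to 16896783 in adult M-MDSC. Levels are CPM, counts scaled to the library total after TMM scaling, and 3 counts, taken as the floor of detection, corresponded to 0.0598 to 3.27 CPM in a library. Ly6g averaged 213 ± 25.1 CPM in newborn PMN-MDSC, 19.5 ± 4.44 CPM in adult PMN-MDSC, 0.875 ± 0.834 CPM in newborn M-MDSC and 0.276 ± 0.478 CPM in adult M-MDSC (SD). Ccr2, a monocyte gene, averaged 4.92 CPM in newborn PMN-MDSC, 14.3 in adult PMN-MDSC, 610.1 in newborn M-MDSC and 550.3 in adult M-MDSC. Among PMN-MDSC, 5 libraries of batch 1 each resembled 1 library of batch 2 (newborn replicates 2 and 37, 3 and 38; adult replicates 1 and 32, 2 and 33, 3 and 34). The chi-square per degree of freedom between such partners was 2.23 to 7.20, while any other newborn or adult PMN-MDSC pair from different batches had 7.86 to 23.3. Whether these pairs share a source is not stated. Results in PMN-MDSC are therefore also given without the batch 1 partner of each pair. The newborn M-MDSC libraries 77 and 79 stood apart in erythroid RNA, and results that rest on them are also given without them. In bulk RNA, fewer cells of a type and less RNA per cell cannot be told apart.

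In PMN-MDSC, the erythroid genes were higher in newborns as a group. Of the 32 tested, 29 were called higher in newborn than in adult PMN-MDSC and 0 lower by edgeR's quasi-likelihood test at an adjusted p under 0.05, where 27.1% of all genes tested were higher and 20.5% lower. At an unadjusted p under 0.05 the number lower was also 0, as it was with DESeq2 and with limma-voom. The median log2 fold change of the 32 was 3.37, against -0.05 for all genes tested. For 29 of the 32, every newborn library lay above every adult library, which held for 28.5% of all genes tested. Some low genes, among them Gata1, Klf1, Kel, Add2 and Rhag, passed the filter on low counts through their newborn PMN-MDSC levels. For these, being higher there was in part set by the filter. Epb42, Epor and Blvrb were not called. The sum of all 34 was 5519 ± 1130 CPM in newborn PMN-MDSC and 614 ± 182 CPM in adult PMN-MDSC (SD, n = 5 and 6). Within batch 1 alone 24 were called higher, and within batch 2 alone 26. Each PMN-MDSC library of batch 1 resembled a library of batch 2, so these counts may not be independent repeats. Without the batch 1 partners of the matched libraries 16 were called higher in the model of all 4 groups, and 31 when only the PMN-MDSC groups were fitted without those partners, a fit added after seeing the data. The number lower was 0 in each of these fits.

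**Figure D1:**
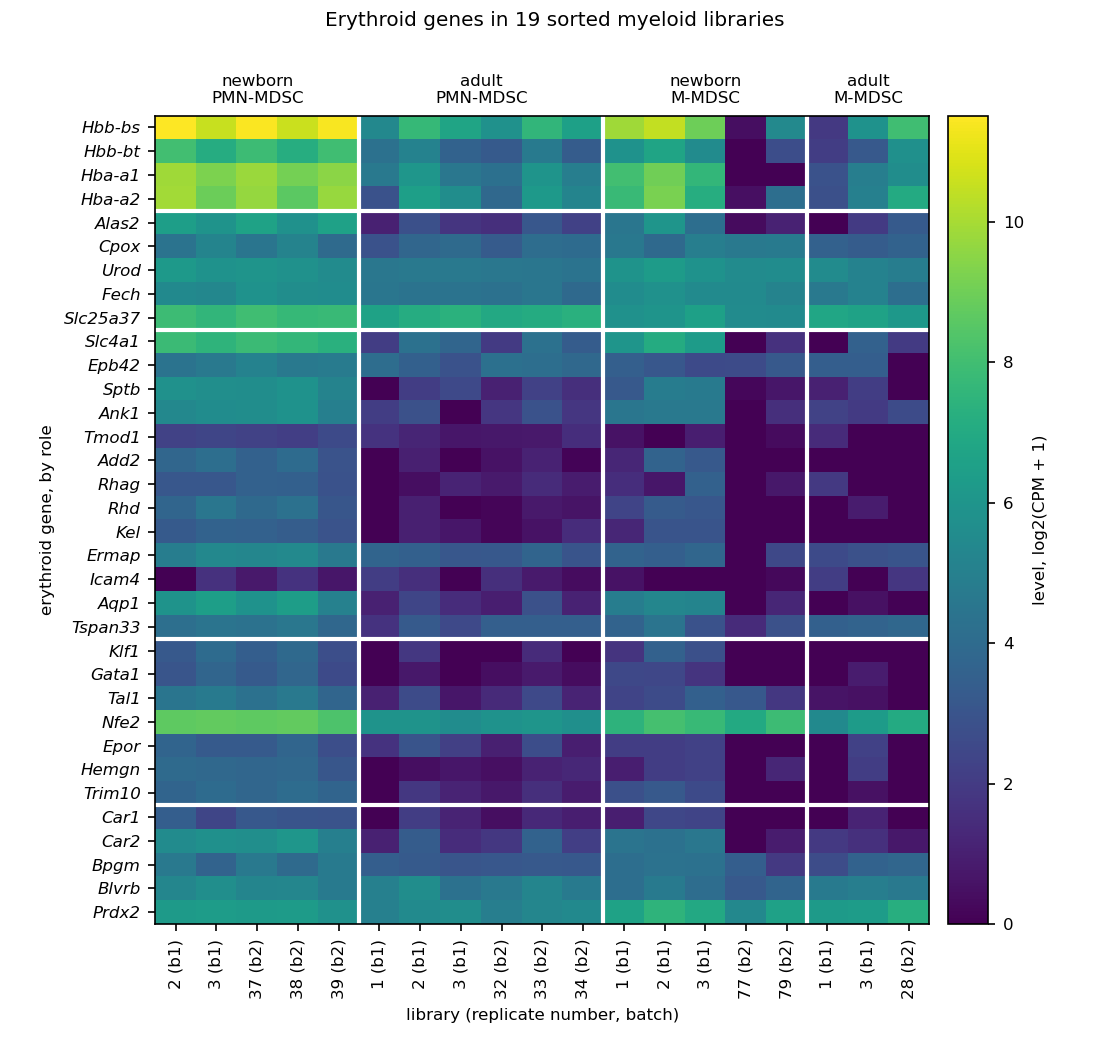
Levels of the 34 erythroid genes (one per line, ordered by role) in the 19 libraries (columns, with replicate number and batch), coloured by log2(CPM + 1). The 5 newborn PMN-MDSC columns are brighter than the 6 adult PMN-MDSC columns for most genes, and among newborn M-MDSC the columns of replicates 77 and 79 are darker than the 3 of batch 1 for the globins and most membrane genes.

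The 4 adult globins were all called higher in newborn PMN-MDSC. Their counts summed to 5072, 2742, 4756, 2644 and 4494 CPM in newborn replicates 2, 3, 37, 38 and 39, and in adult PMN-MDSC the lowest, median and highest sums were 89.5, 177 and 396 CPM. The groups did not overlap, and the sum made up 0.202% to 0.401% of the counts in newborn libraries and 0.00991% to 0.0441% in adult libraries. Hbb-bs, a beta globin gene at chr7:103826534-103828096 (GRCm38, minus strand), had 2923, 1513, 2816, 1553 and 2675 CPM in newborn PMN-MDSC and 40.4, 98.9 and 206 CPM (lowest, median, highest) in adult PMN-MDSC. Its log2 fold change was 4.33 ± 1.12 (SE), with an adjusted p of 0.00357 by edgeR's test.

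Hbb-bt, the second adult beta globin gene, had a log2 fold change of 3.62 ± 0.92, and the alpha globin genes Hba-a1 and Hba-a2 had 4.36 ± 1.18 and 3.97 ± 1.03. The newborn libraries fell into a higher and a lower level, with replicates 2, 37 and 39 above replicates 3 and 38 for each of the 4 globins. Per kilobase of exon, Hbb-bs was the most abundant of the 34 genes in newborn PMN-MDSC at 2990 CPM per kb, followed by Hba-a2 at 1044 and Hba-a1 at 917. Hbb-bt was next at 292 CPM per kb. These members share sequence: 89.3% of the 50-base windows of Hba-a2 transcripts also occur in Hba-a1, and 58.3% of those of Hbb-bt also occur in Hbb-bs. The split of reads between close copies is therefore uncertain, and their sum is the firmer value. Without the batch 1 partners of the matched libraries, the 4 globins kept log2 fold changes of 3.93 to 4.44 but were not called in the model of all 4 groups, with adjusted p-values by edgeR of 0.068 to 0.105. When only the PMN-MDSC groups were fitted without those partners, all 4 were called, at 3.91 to 4.43.

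Embryonic and minor globins were nearly absent. Hbb-y, Hbb-bh2 and Hba-x, which are globins of the embryonic mouse, had 0 counts in all 19 libraries. Hbb-bh1, another embryonic beta-like globin, had 2 counts in all newborn PMN-MDSC libraries together and 32 in adult PMN-MDSC. Hbq1b, a theta globin gene, had 127 counts in newborn PMN-MDSC (2.00 ± 0.82 CPM, SD, n = 5) and 12 in adult PMN-MDSC. Hbq1a, its close copy, had 1 count in newborn and 4 in adult PMN-MDSC. None of these 6 passed the filter on low counts.

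**Figure D2:**
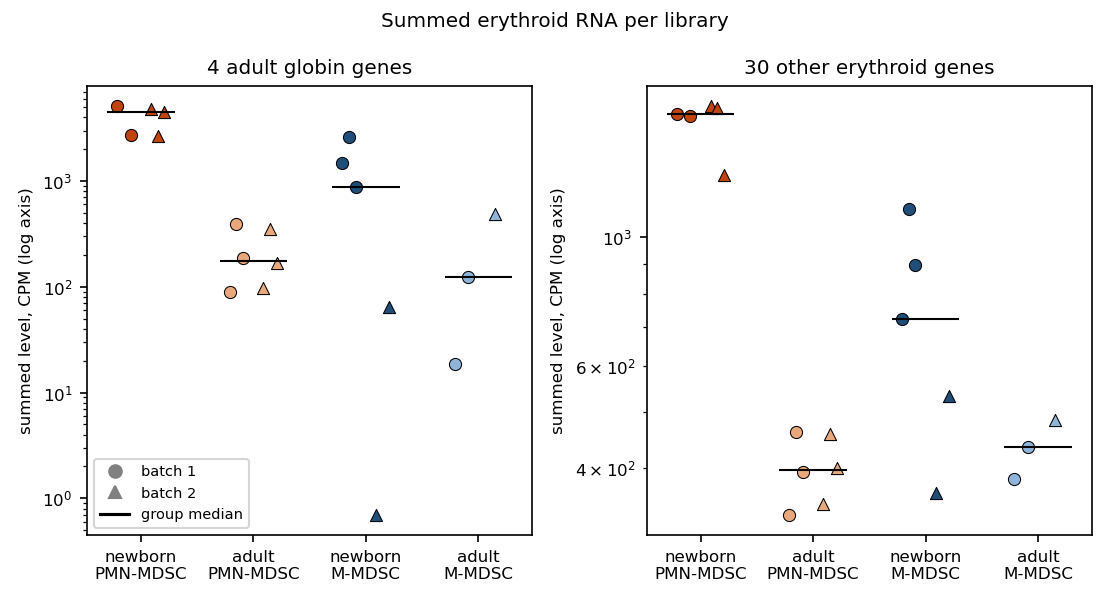
Summed level per library (CPM, log axes) of the 4 adult globins (left panel) and of the 30 other erythroid genes (right panel) in the 4 groups. Circles are batch 1, triangles batch 2, and the horizontal lines are group medians. The newborn PMN-MDSC libraries, at 2644 to 5072 CPM of globin, lie above all adult PMN-MDSC libraries, at 89.5 to 396 CPM, and the newborn M-MDSC points of batch 2 lie far below those of batch 1.

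All 5 genes of haem synthesis and its iron supply were called higher in newborn PMN-MDSC, by unequal amounts. Alas2, the erythroid form of the enzyme that starts haem synthesis, had 85.7, 59.5, 99.5, 56.5 and 94.6 CPM in newborn PMN-MDSC, against 1.09, 3.05 and 7.74 CPM (lowest, median, highest) in adult PMN-MDSC. The groups did not overlap, and newborn replicates 3 and 38 were again the low pair. Its log2 fold change was 4.21 ± 0.90, with an adjusted p of 0.000801 by edgeR's test. The enzymes of later steps changed less. Urod, which trims uroporphyrinogen, rose by 1.37 ± 0.14 on the log2 scale (adjusted p by edgeR 2.15e-07), with 46.0 to 71.0 CPM in newborn and 19.7 to 24.5 CPM in adult PMN-MDSC. Fech, which inserts iron into the ring, rose by 1.31 ± 0.18, and Cpox, which acts between them, by 0.96 ± 0.28. The call for Cpox was lost in 7 of 37 alternatives, either batch alone and the fits without partners among them. Cpox levels overlapped between the groups, at 14.6 to 35.4 CPM in newborn and 6.55 to 16.3 CPM in adult PMN-MDSC. Slc25a37 (mitoferrin-1), which carries iron into the mitochondrion, rose by 0.72 ± 0.17, to 191 to 249 CPM in newborn libraries, against 99.3 to 160.1 CPM in adult libraries.

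Erythroid factors bind, among other places, in the stretch before a gene's start. Such stretches are shown for 5 genes of unlike change in newborn PMN-MDSC: Hba-a2, Alas2 and Rhd, at 3.97 to 4.85 on the log2 scale, and Cpox and Urod, at 0.96 and 1.37. They are from RefSeq on GRCm38.p6, 5′ to 3′ on the gene's own strand, within the 150 bases before the annotated start and without bases that the GENCODE M21 annotation places in an exon. Capitals mark matches on either strand to a GATA motif, which is the letters GATA with A or T before them and A or G after them, or to CCAAT.
Hba-a2, chr11:32296342-32296488, plus strand: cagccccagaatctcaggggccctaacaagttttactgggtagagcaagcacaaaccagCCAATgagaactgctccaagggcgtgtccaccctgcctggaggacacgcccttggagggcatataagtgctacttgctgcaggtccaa
Alas2, chrX:150547267-150547374, plus strand: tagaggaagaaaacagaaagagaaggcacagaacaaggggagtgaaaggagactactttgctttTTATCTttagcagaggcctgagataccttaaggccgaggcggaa
Rhd, chr4:134864386-134864535, plus strand: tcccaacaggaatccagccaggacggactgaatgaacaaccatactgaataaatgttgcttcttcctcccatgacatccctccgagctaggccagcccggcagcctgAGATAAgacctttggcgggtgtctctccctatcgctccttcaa
Cpox, chr16:58670058-58670207, plus strand: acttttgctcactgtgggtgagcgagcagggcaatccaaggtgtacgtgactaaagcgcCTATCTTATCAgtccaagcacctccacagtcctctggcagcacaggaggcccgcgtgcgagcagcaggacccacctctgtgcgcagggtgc
Urod, chr4:116994414-116994563, minus strand: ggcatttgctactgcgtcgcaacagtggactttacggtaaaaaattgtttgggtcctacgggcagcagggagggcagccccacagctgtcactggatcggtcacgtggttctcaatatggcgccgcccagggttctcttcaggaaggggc

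The capitals in Cpox are 2 GATA matches that share 1 base, Alas2 and Rhd hold 1 match each, Hba-a2 holds a CCAAT, and Urod holds neither. Over the same 150 bases, 10 of 29 promoters of the erythroid genes (34.5%; 27 genes had a promoter in the RefSeq table) held a GATA match, against 5255 of 32851 promoters of all genes (16.0%). CCAAT was found on either strand in 9 of the 29 (31.0%) and in 24.5% of all promoters, and CCACACCC, a form bound by KLF1, in 1 of the 29 (Hbb-bs) and in 2.18% of all promoters. Genes with a GATA match included Cpox, whose fold was among the smallest, as well as Rhd, at 4.85. A match describes the letters in this window and is not a measured site.

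Membrane and skeleton genes were the most numerous. Of the 11 tested, 10 were called higher in newborn PMN-MDSC, with a median log2 fold change of 3.60 over the 11, and the 13 in the table summed to 487 ± 76.7 CPM in newborn and 55.4 ± 15.6 CPM in adult PMN-MDSC (SD, n = 5 and 6). Slc4a1, the anion exchanger band 3, had 231, 179, 228, 196 and 159 CPM in newborn PMN-MDSC, against 2.87, 10.9 and 18.8 CPM (lowest, median, highest) in adult PMN-MDSC. The lowest newborn library lay above the highest adult one, and the log2 fold change was 4.20 ± 0.93 (adjusted p by edgeR 0.00107). Of the skeleton, Sptb (beta spectrin) had 34.5 to 57.9 CPM in newborn and 0 to 4.78 CPM in adult libraries, and its log2 fold change was 4.36 ± 0.85. Ank1, the ankyrin that ties spectrin to band 3, and Add2, the beta adducin at the skeleton's junctions, changed by 3.58 ± 0.84 and 4.37 ± 1.2.

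The genes of blood group proteins were called higher as well. Rhd, the mouse Rh protein gene, had 7.52 to 22.0 CPM in newborn and 0 to 0.986 CPM in adult PMN-MDSC, with 2 of 6 adult libraries at 0. Its fitted log2 fold change, 4.85 ± 1.11 (adjusted p by edgeR 0.00143), therefore rests on adult levels near the floor. Its partner Rhag changed by 3.20 ± 1.08, Kel, the gene of the Kell protein, by 3.60 ± 1.13, and Ermap, a membrane protein of red cells, by 1.91 ± 0.62. Aqp1, the water channel of the red cell and of other tissues, had 58.4, 87.1, 56.7, 83.4 and 32.3 CPM in newborn PMN-MDSC and 0.979, 1.45 and 6.16 CPM (lowest, median, highest) in adult PMN-MDSC, a log2 fold change of 4.42 ± 0.88. Its newborn libraries did not follow the globins: replicates 3 and 38 were the high pair and replicate 39 the lowest. Tspan33, a tetraspanin, changed by 1.19 ± 0.45 with an adjusted p of 0.038 by edgeR's test, and lost its call when any of 7 PMN-MDSC libraries (adult 1, 2 or 3, newborn 2, 3, 37 or 38) was left out, with log2 fold changes between 0.74 and 1.75 over all alternatives.

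Epb42, the band 4.2 protein, was the tested membrane gene that was not called, at 0.90 ± 0.61 and an adjusted p of 0.24 by edgeR's test. Its newborn libraries, at 20.2 to 33.7 CPM, nevertheless all lay above the adult ones, at 6.57 to 18.0 CPM, and it was called in the fit of the PMN-MDSC groups alone. Of the 2 genes under the filter, Tmod1 (tropomodulin) had 3.45 to 4.97 CPM in newborn and 0.597 to 2.18 CPM in adult PMN-MDSC, without overlap. Icam4, an adhesion molecule of erythroid cells, had 0 to 2.20 CPM in newborn and 0 to 3.27 CPM in adult PMN-MDSC, with overlap. An antisense gene covers the whole of Icam4, and no source used here says that reads were counted by strand.

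**Figure D3:**
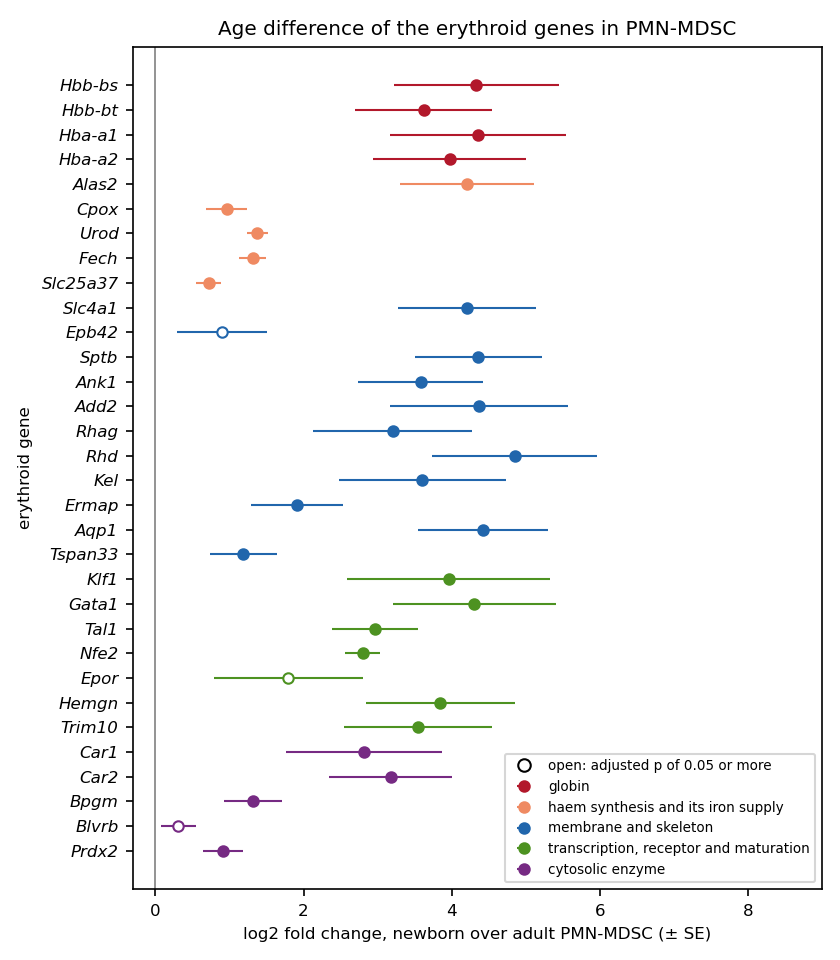
Log2 fold change of newborn over adult PMN-MDSC for the 32 tested erythroid genes, coloured by role, with bars of 1 SE from edgeR's model. Filled points passed an adjusted p of 0.05, and open points (Epb42, Epor, Blvrb) did not. All 32 points lie right of 0, from 0.31 for Blvrb to 4.85 for Rhd.

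The transcription, receptor and maturation genes held 6 called higher of 7 in newborn PMN-MDSC, with a median log2 fold change of 3.54. Gata1, the master factor of the lineage, had 7.10, 12.5, 8.61, 13 and 5.03 CPM in newborn PMN-MDSC, against 0, 0.312 and 0.778 CPM (lowest, median, highest) in adult PMN-MDSC, and its log2 fold change was 4.31 ± 1.10 (adjusted p by edgeR 0.00331). Klf1, the factor that activates adult beta globin, had 8.19, 15.1, 9.88, 14.1 and 5.90 CPM in newborn libraries, while adult replicates 2 and 33 had 2.63 and 1.65 CPM and the other 4 adult libraries had 0 counts. Its log2 fold change was 3.96 ± 1.37 (adjusted p by edgeR 0.0253), and the call was lost without newborn replicate 38, in batch 2 alone, and in the model of all 4 groups without the batch 1 partners or with matched libraries summed. In both genes, as in Aqp1, newborn replicates 3 and 38 were the highest pair and replicate 39 the lowest.

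Tal1, a partner of GATA1, rose by 2.97 ± 0.58 on the log2 scale, Hemgn, an erythroid nuclear protein, by 3.85 ± 1.00, and Trim10, needed for terminal red cell maturation, by 3.54 ± 1.00. Nfe2, a factor of erythroid cells and megakaryocytes, was by far the most abundant of the 7. It had 405, 434, 400.4, 424 and 316 CPM in newborn PMN-MDSC and 47.2, 58.9 and 63.0 CPM (lowest, median, highest) in adult PMN-MDSC, with a log2 fold change of 2.80 ± 0.23 and an adjusted p of 1.27e-08 by edgeR's test. The groups did not overlap. Epor, the erythropoietin receptor, was not called: it had 5.90 to 12.3 CPM in newborn and 0.966 to 6.90 CPM in adult PMN-MDSC, with overlap, a log2 fold change of 1.80 ± 1.00 and an adjusted p of 0.152 by edgeR.

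Of the 5 cytosolic enzymes, 4 were called higher in newborn PMN-MDSC. The carbonic anhydrases Car2 and Car1, which hydrate carbon dioxide, changed by 3.18 ± 0.83 and 2.82 ± 1.05 on the log2 scale, and Car2 had 30.4 to 64.3 CPM in newborn and 1.09 to 11.4 CPM in adult libraries. The call for Car1 (adjusted p by edgeR 0.0342) was lost in 11 of 35 alternatives, among them leaving out adult replicate 1, 2, 3, 32 or 34 or newborn replicate 37, 38 or 39, with log2 fold changes of 2.29 to 3.35 over all of them. Bpgm, which makes the phosphoglycerate that loosens oxygen from haemoglobin, changed by 1.32 ± 0.39, and its newborn libraries followed the globins, with replicates 3 and 38 low at 11.6 and 14.6 CPM and the other 3 at 24.6 to 25.9 CPM. Prdx2, an abundant peroxidase of red cells that other cells also make, changed by 0.92 ± 0.27. Blvrb, a biliverdin reductase, was not called: it had 25.9 to 50.0 CPM in newborn and 18.5 to 48.7 CPM in adult PMN-MDSC, and a log2 fold change of 0.31 ± 0.24 (adjusted p by edgeR 0.306).

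Other genes of the same pathways, which are not among the 34, were counted from lists chosen with earlier results of these data known. In newborn against adult PMN-MDSC, 3 of 5 further haem synthesis genes were called higher and 0 lower. Of the further membrane genes, 10 of 11 were called higher and 0 lower. Of all genes tested, 27.1% were higher and 20.5% lower. Alas1, the form of the first haem enzyme used outside the red cell lineage, averaged 209 ± 16.9 CPM in newborn and 49.3 ± 9.03 CPM in adult PMN-MDSC (SD, n = 5 and 6), a log2 fold change of 2.09 ± 0.18. Ppox, the last enzyme of the pathway but one, changed by 1.12 ± 0.15, while Alad was not called (1.08, adjusted p by edgeR 0.0706). Among the membrane genes, Tmcc2 changed by 3.43 ± 0.50, and Add1, Epb41 and Cd47, which are used in many cells, by 1.57 ± 0.17, 1.30 ± 0.09 and 0.95 ± 0.13.

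The remaining lists were divided, and their counts stand beside 27.1% of all genes tested called higher and 20.5% lower. Of 13 further transcription factors, 7 were called higher and 2 lower in newborn PMN-MDSC. E2f2, a cell cycle factor of late erythroblasts, changed by 2.16 ± 0.13, Lyl1 by 1.70 ± 0.27 and Myb by 1.67 ± 0.25, and Cbfa2t3, a corepressor bound to TAL1, changed by -2.18 ± 0.18. Of 13 further iron and mitochondrial transport genes, 5 were called higher, among them Steap3, Slc25a38 and Abcb10 at 1.43 ± 0.31, 1.06 ± 0.18 and 1.03 ± 0.31, and 3 lower. Fth1, the ferritin heavy chain, was one of the lower, at -1.27 ± 0.33. Of 12 further genes of late maturation, 6 were called higher, among them Mxi1 at 2.20 ± 0.14, Bnip3l at 1.31 ± 0.14 and Xpo7 at 0.60 ± 0.13, and 2 lower. The full lists, with members, were called higher in 7 of 9 (haem synthesis), 20 of 22 (membrane), 11 of 17 (transcription factors), 6 of 14 (iron) and 12 of 19 (late maturation).

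In M-MDSC, fewer erythroid genes were called. By edgeR's test 8 of the 32 were higher in newborn than in adult M-MDSC and 2 were lower, where 15.9% of all genes tested were higher and 14.3% lower. The median log2 fold change of the 32 was 1.55, against 0.01 for all genes. Every newborn library lay above every adult library for 3 of the 32 (Cpox, Fech and Tal1), which held for 12.8% of all genes. The 8 called higher were Cpox, Urod, Fech, Nfe2, Tal1, Aqp1, Add2 and Kel, and the 2 lower were Slc25a37 and Blvrb. The globins were among the 22 not called. Without newborn replicate 77, 13 were called higher, without newborn replicate 3 it was 5, and in a fit of the M-MDSC groups alone it was 1. In batch 1 alone it was 17, and in batch 2 alone 3.

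The haem enzymes Cpox, Urod and Fech had counts in every M-MDSC library. Cpox had 23.2, 14.1, 29.6, 24.2 and 25.2 CPM in newborn M-MDSC (replicates 1, 2, 3, 77 and 79), against 10.9, 9.10 and 11.3 CPM in adult M-MDSC (replicates 1, 3 and 28), and its log2 fold change was 1.15 ± 0.36 (adjusted p by edgeR 0.0202). Fech had 46.8, 55.1, 44.8, 44.3 and 34.4 CPM in newborn M-MDSC and 24.6, 33.5 and 17.1 CPM in adult M-MDSC, and changed by 0.87 ± 0.22 (adjusted p by edgeR 0.0063). In both genes the lowest newborn library lay above the highest adult one. Urod changed by 0.72 ± 0.17, with newborn libraries at 45.6 to 80.0 CPM and adult ones at 28.7 to 45.9 CPM. The call for Cpox was lost in 11 of 36 alternatives, among them either batch alone, the M-MDSC groups alone, and leaving out newborn replicate 3 or adult replicate 3. Urod lost its call in 5, either batch alone among them, and Fech in 4, batch 1 alone among them. Nfe2 had 176, 273, 213, 128 and 239 CPM in newborn M-MDSC and 42.6, 78.2 and 131 CPM in adult M-MDSC, with overlap between newborn replicate 77 and adult replicate 28. Its log2 fold change was 1.28 ± 0.28 (adjusted p by edgeR 0.00207), while in batch 2 alone it was 0.56 and was not called, and the call was also lost with the M-MDSC groups alone.

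Add2, Kel, Aqp1 and Tal1 were at or near 0 in adult M-MDSC, so no fitted fold is given. Pooled over batch 1, Add2 had 39 counts in the 3 newborn M-MDSC libraries and 0 in the 2 adult ones, at least 9.38-fold higher against a floor of 3 counts over the adult libraries (0.706 CPM), and Kel had 29 counts in newborn and 0 in adult ones, at least 6.98-fold higher. Aqp1 had 196 counts in newborn and 1 in adult libraries of batch 1, a ratio of 141.5 with an exact 95% interval of 25.1 to 5617. Tal1 had 40 counts in newborn and 2 in adult libraries, a ratio of 14.4 (3.74 to 123). In batch 2, Add2 and Kel had 0 counts in both newborn libraries and in the adult one, so their calls rest on batch 1. Aqp1 had 0 counts in newborn replicate 77, 33 in newborn replicate 79 and 1 in adult replicate 28. Tal1 had 173 counts in newborn replicate 77 (8.09 CPM), 65 in newborn replicate 79 (2.61 CPM) and 0 in adult replicate 28. Counting error alone is covered by these intervals and floors.

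The 2 genes lower in newborn M-MDSC were genes that other cells also use. Slc25a37 had 55.1, 62.1, 92.9, 46.3 and 44.3 CPM in newborn M-MDSC and 109.8, 98.5 and 70.3 CPM in adult M-MDSC, and changed by -0.62 ± 0.21 (adjusted p by edgeR 0.0327). Blvrb had 17.1, 25, 16.2, 8.18 and 12.1 CPM in newborn M-MDSC and 25.1, 29.0 and 23.9 CPM in adult M-MDSC, and changed by -0.78 ± 0.29 (adjusted p by edgeR 0.0487). The groups overlapped in both, and both lost their call when newborn replicate 77 or 79 was left out. Over all alternatives the call was lost in 12 of 36 for Slc25a37 and in 21 of 36 for Blvrb. Of the pathway genes outside the 34, newborn M-MDSC had 2 of 5 haem synthesis genes higher and 0 lower, with Alas1 at 1.88 ± 0.24. Membrane genes were higher in 5 of 11 and lower in 0, and transcription factors higher in 2 and lower in 3 of 13. Iron genes were higher in 0 and lower in 3 of 13, and late maturation genes higher in 3 and lower in 1 of 12. These short lists stand beside 15.9% of all genes tested called higher and 14.3% lower.

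The newborn M-MDSC libraries differed strongly among themselves, along the batch. The 4 globins summed to 1479, 2618 and 887 CPM in replicates 1, 2 and 3 of batch 1, and to 0.701 and 63.7 CPM in replicates 77 and 79 of batch 2. Replicate 77 held 15 globin counts in all, the lowest of any library. Of the 32 erythroid genes, 17 were called lower in batch 2 than in batch 1 within newborn M-MDSC by edgeR's test with a batch term for each group, where 1.78% of all genes (230) were lower, and the median log2 difference was -4.90, against -0.06 for all genes. At an unadjusted p under 0.05 it was 26 lower and 0 higher. Within newborn PMN-MDSC and within adult PMN-MDSC, 0 of the 32 differed between batches, also at an unadjusted p under 0.05. Few genes of any kind did. Of all 12943, 0 were higher and 4 lower in batch 2 within newborn PMN-MDSC, and 1 higher and 5 lower within adult PMN-MDSC. Each PMN-MDSC library of batch 1 resembled a library of batch 2, so agreement between batches there may not be an independent repeat. Whether the partners share a source is not stated. Between newborn M-MDSC libraries of different batches, the chi-square per degree of freedom was 16.4 to 119. Within adult M-MDSC the only batch 2 library, replicate 28, had 486 CPM of globin, against 18.6 and 125 CPM in replicates 1 and 3. Over the 32, the median log2 difference of that library from batch 1 was -0.32, against -0.15 for all genes. This median covers large values of both signs. The globins were at 1.42 to 3.19, while Epb42, Sptb and Epor were at -9.97, -7.87 and -7.64, all fitted from that single library. The split within newborn M-MDSC was seen in the data, and the labels give no reason for it other than the batch.

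Library 77 also divided the 34 genes. There, 23 of them were under 1 CPM, 19 of these at 0 counts, and 11 were at 1.64 to 128 CPM. The 11 were Cpox, Urod, Fech, Slc25a37, Epb42, Tspan33, Tal1, Nfe2, Bpgm, Blvrb and Prdx2. In newborn against adult PMN-MDSC, the 21 tested genes of the 23 had log2 fold changes of 1.80 to 4.85 with a median of 3.96, and the 11 had 0.31 to 2.97 with a median of 1.19. All 17 genes lower in batch 2 belonged to the 23. Library 77 is itself a batch 2 library, so that overlap follows in large part from how the 23 were chosen. This division was made after the values were seen and is a description of these libraries, with no test.

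Comparisons of newborn with adult M-MDSC moved with newborn replicates 77 and 79. In batch 2 alone they also rested on a single adult library, replicate 28. Hbb-bs had 940.3, 1412, 502, 0.327 and 41.4 CPM in newborn M-MDSC and 2.73, 56.7 and 254 CPM in adult M-MDSC, and its log2 fold change of 2.21 ± 1.51 was not called (adjusted p by edgeR 0.295). In batch 1 alone it was 4.96 (adjusted p by edgeR 0.00401), in batch 2 alone -3.49 (0.137), and without replicates 77 and 79 it was 3.59 (0.00941). Pooled over batch 1, Hbb-bs had 5322 counts in newborn and 142 in adult M-MDSC. Alas2 had 22.2, 64.0, 17.1, 0.281 and 1.16 CPM in newborn M-MDSC and 0, 2.90 and 8.55 CPM in adult M-MDSC, and Slc4a1 had 63.9, 134, 80.0, 0 and 2.13 CPM in newborn M-MDSC and 0, 10.8 and 2.87 CPM in adult M-MDSC. Neither was called, at log2 fold changes of 1.74 ± 1.21 and 3.08 ± 1.31. Both were called higher in batch 1 alone, at 4.35 and 3.97. In batch 2 alone the values were -3.45, called lower for Alas2, and -1.29, not called for Slc4a1. Without replicates 77 and 79, a choice made after seeing the data, 20 of the 32 were called higher in newborn M-MDSC and 0 lower. The share of all genes called was not computed for that fit or for single batches.

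**Figure D4:**
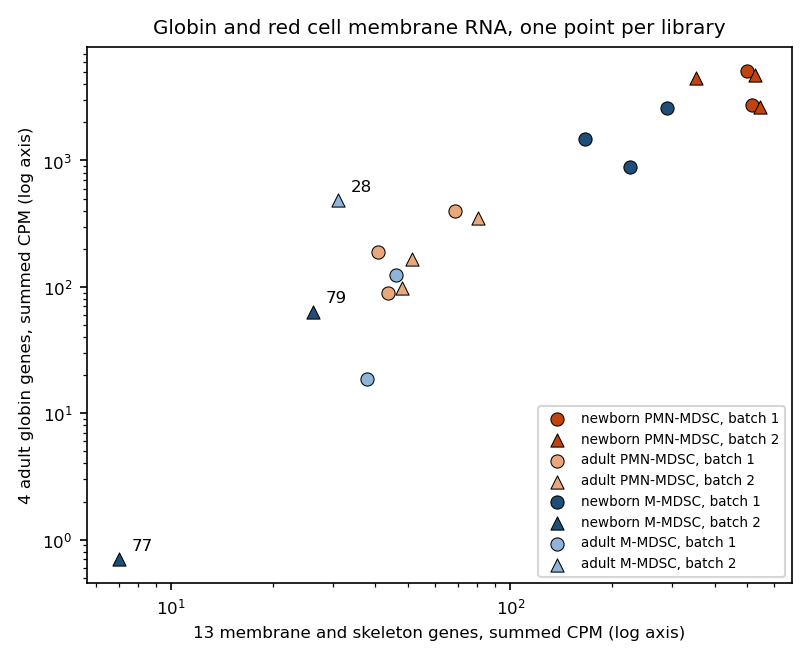
Summed level of the 4 adult globins (vertical, CPM, log axis) against that of the 13 membrane and skeleton genes (horizontal, CPM, log axis), one point per library, with newborn libraries in dark and adult libraries in light colours, and circles and triangles for batches 1 and 2. Newborn PMN-MDSC lie at the top right, newborn M-MDSC of batch 1 below them, and the numbered points are newborn M-MDSC replicates 77 and 79 and adult M-MDSC replicate 28.

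Globin and membrane RNA were not in a fixed ratio. Globin counts per membrane count were 4.86 to 12.7 in newborn PMN-MDSC and 2.02 to 5.76 in adult PMN-MDSC. In newborn M-MDSC they were 3.95 to 9.03 in batch 1, 0.1 in replicate 77 and 2.44 in replicate 79, and in adult M-MDSC they were 0.493, 2.72 and 15.7 in replicates 1, 3 and 28. Adult replicate 28 thus had the most globin per membrane count of all libraries.

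The difference between the age effects, M-MDSC minus PMN-MDSC, was tested directly. Of the 32 genes, 3 had a lower age effect in M-MDSC and 0 a higher one by edgeR's test, where 11.5% of all genes were lower and 6.61% higher. At an unadjusted p under 0.05 the number higher was also 0, as with DESeq2 and limma-voom. The median difference of the 32 was -1.11, against -0.06 for all genes. Slc25a37 differed by -1.34 ± 0.27 (adjusted p by edgeR 0.00198): its age effect was -0.62 in M-MDSC and 0.72 in PMN-MDSC. Nfe2 differed by -1.52 ± 0.35 (adjusted p by edgeR 0.00461) and Urod by -0.66 ± 0.22 (adjusted p by edgeR 0.0448), and both were higher in newborns in either cell type. The call for Urod was lost in 24 of 35 alternatives. In batch 1 alone none of the 3 was called. The count lower was 11 in batch 2 alone, 12 with matched libraries as a random block and 13 with a batch term per group, with 1 higher in each, and without the batch 1 partners it was 1.

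At the newborn age, M-MDSC held less erythroid RNA than PMN-MDSC. The 34 genes summed to 1736 ± 1361 CPM in newborn M-MDSC and 5519 ± 1130 CPM in newborn PMN-MDSC (SD, n = 5 each). By edgeR's test 14 of the 32 were lower in M-MDSC and 0 higher, where 23.4% of all genes were lower and 18.7% higher. At an unadjusted p under 0.05 the number higher was also 0, with DESeq2 it was 0 and with limma-voom 1. The median log2 fold change was -2.40, against -0.13 for all genes. Every M-MDSC library lay below every PMN-MDSC library for 17 of the 32, which held for 22.5% of all genes. The 14 were Hbb-bt, Slc25a37, Slc4a1, Epb42, Sptb, Ermap, Aqp1, Tal1, Nfe2, Epor, Hemgn, Car1, Car2 and Blvrb. The haem enzymes Cpox, Urod and Fech were close to 0 in this comparison, at -0.09 ± 0.29, -0.07 ± 0.15 and -0.12 ± 0.19.

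Part of that count rested on the batch 2 libraries. Slc25a37, at 44.3 to 92.9 CPM in newborn M-MDSC and 191 to 249 CPM in newborn PMN-MDSC, had a log2 fold change of -1.95 ± 0.19 (adjusted p by edgeR 2.4e-07). Nfe2, Ermap and Blvrb had -0.93 ± 0.23, -2.49 ± 0.72 and -1.41 ± 0.26. Without replicates 77 and 79, 4 genes were called lower, Slc25a37, Nfe2, Ermap and Blvrb. Hbb-bt, at -2.68 ± 1.04 with all libraries, had -1.35 without those 2 (adjusted p by edgeR 0.121), and Sptb, at -3.38 ± 1.02, had -1.70 (0.0781). Without replicate 79 alone 5 were called lower, and it was 9 without any of newborn PMN-MDSC replicates 37, 38 or 39. In batch 2 alone 27 were called lower, and 28 with limma-voom, with matched libraries as a random block or with a batch term per group. In batch 1 alone it was 7, and without the batch 1 partners 17, a fit whose batch term was set by M-MDSC alone.

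In adults, the 34 genes summed to 644 ± 294 CPM in adult M-MDSC and 614 ± 182 CPM in adult PMN-MDSC (SD, n = 3 and 6), with overlapping libraries. By edgeR's test 2 of the 32 were higher in M-MDSC and 2 lower, where 16.7% of all genes were higher and 12.5% lower. Without the batch 1 partners of the matched libraries, and with those libraries summed, 0 were higher and 13 lower. In both fits every PMN-MDSC library counted as batch 2, so the batch term was set by M-MDSC alone. That term included the split between the newborn M-MDSC batches, and these 13 are therefore not a result from adult cells alone. Its part in the 13 was not tested. The count lower was 9 in batch 2 alone, 11 with a batch term per group and 1 in batch 1 alone. Prdx2 was higher, with 77.6, 82.3 and 148 CPM in adult M-MDSC and 29.0, 40.5 and 49.6 CPM (lowest, median, highest) in adult PMN-MDSC, a log2 fold change of 1.39 ± 0.30 (adjusted p by edgeR 0.00208). Urod was higher by 0.58 ± 0.17 (0.0129). Slc25a37 was lower, at -0.61 ± 0.21 (0.0383), and so was Tal1, which had 2 counts in all adult M-MDSC libraries together. Prdx2 and Urod lost their calls without the partners, and Slc25a37 lost its call in 12 of 36 alternatives. Without adult M-MDSC replicate 28 the counts were 1 higher and 0 lower, and without newborn M-MDSC replicate 77 they were 2 higher and 4 lower.

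Genes of other cells were counted as well, where 27.1% of all genes tested were higher and 20.5% lower in newborn PMN-MDSC. Neutrophil genes summed to 96922 ± 4479 CPM in newborn and 10624 ± 307 CPM in adult PMN-MDSC, and 11 of 13 were called higher and 1 lower. Eosinophil genes summed to 351 to 885 CPM in newborn and 70.9 to 144 CPM in adult PMN-MDSC, and 7 of 10, with Gata1 among them, were called higher and 1 lower. The eosinophil receptor genes Siglecf, Il5ra and Ccr3 were not among the 7 called higher, and the 1 called lower was one of them. Epx, the eosinophil peroxidase, was chosen after its values were seen. It had 95.5, 157, 103, 161 and 38.8 CPM in newborn PMN-MDSC and 0 counts in all adult libraries of both cell types. As for Gata1, Klf1 and Aqp1, the matched replicates 3 and 38 were the highest and replicate 39 the lowest. In newborn M-MDSC replicate 77, Epx had 709 counts and Gata1 and Klf1 had 0. Of the megakaryocyte and platelet genes 3 of 8 were called higher in newborn PMN-MDSC (sums of 286 ± 26.3 CPM in newborn and 162 ± 17.3 CPM in adult libraries), and Pf4, the platelet factor, was at most 4.37 CPM in newborn PMN-MDSC and 2.63 CPM in adult PMN-MDSC.

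Of 15 genes of the macrophages that surround erythroblasts, 0 were called higher, 5 lower and 10 neither in newborn PMN-MDSC, where 20.5% of all genes were lower, with overlapping sums of 2794 to 3452 CPM in newborn and 2607 to 5512 CPM in adult libraries. All 11 B cell genes were lower, at 718 to 1091 CPM in newborn and 4613 to 7216 CPM in adult PMN-MDSC. Of T and NK cell genes 4 of 12 were lower and 0 higher, and of 8 stem and progenitor genes 2 were higher and 1 lower. Of 4 mast cell and basophil genes 2 were higher and 1 lower, and of 9 monocyte genes 3 were higher and 4 lower. These short lists stand beside 27.1% of all genes tested called higher and 20.5% lower. The part of each of these in the erythroid values was not tested. The mix of male and female mice moved with age too: Kdm5d, a Y-linked gene, had 0 counts in every adult library and counts in the newborn libraries, and its part in the values of the X-linked genes Alas2 and Gata1 was not tested.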

How the data were processed

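Per the labels' protocols, 19 libraries were read as 50 base single ends. Estimated counts for every gene, without normalization, were deposited by the authors in a single table. The submitters' processing notes list RSEM 1.2.3, DESeq2 (with no role) and mm10. The tool for alignment, the annotation release and any use of strand were not given in the sources used here. Exons of Alas2, Cpox, Slc25a37, Ank1, Add2, Tmod1, Icam4 and Prdx2 overlap genes on the opposite strand in GENCODE M21, so their reads cannot be told apart.

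The estimated counts deposited were rounded and tested in R 4.3.3 with edgeR 4.0.16: TMM scaling, edgeR's filter on low counts by group, 1 model of group and batch over all libraries (14 residual degrees of freedom), the quasi-likelihood test, and Benjamini-Hochberg adjustment over 12943 genes, called under 0.05. Standard errors were derived from the F statistic. No label ties libraries to separate animals, so the p-values reflect only how these libraries vary, and part of that may be technical. Alternatives included other scalings and filters, DESeq2 1.42.0, limma 3.58.1 (voom), single batches, a replicate block and each library left out. For these comparisons under alternatives, the share of all genes called was not computed, so their counts of erythroid genes cannot be set against it. The test was tried on simulated counts.

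The members, gene lists and tests were chosen with earlier results of these data known. Every member is named or counted. Of other pathway genes, the embryonic globins and up to 4 per list with the smallest adjusted p in PMN-MDSC are named, though some are not reported here. Epx, Pf4 and Kdm5d were chosen after their values were seen.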

Additional observations from a re-analysis of the deposited data

Results flagged for a closer look

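Among the levels of the erythroid genes in groups of 4 to 10 libraries, 4 of 102 groups held a library far from the others. Chance alone would mark about 1 group in 20. Rhag was 11.09 CPM in newborn M-MDSC replicate 3, against 0 to 1.85 CPM in the other 4 libraries of that group. The other 3 marks fell on newborn PMN-MDSC replicate 39, which was low for Nfe2 (315.5 CPM), Hemgn (7.578 CPM) and Prdx2 (55.42 CPM), against 400.4 to 434 CPM, 13.1 to 14.7 CPM and 77.0 to 80.7 CPM in the other 4. Replicate 39 is also the newborn PMN-MDSC library without a matched library in batch 1.

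The age effect differed between the cell types, by edgeR's test of the difference, for 3 of the 32 tested genes. All 3 were lower in M-MDSC, where 11.5% of all genes tested were lower, and none of them was called in batch 1 alone. On the log2 scale, M-MDSC minus PMN-MDSC, the difference was -0.66 for Urod, -1.34 for Slc25a37 and -1.52 for Nfe2. Slc25a37 was lower in newborn M-MDSC than in adult M-MDSC and higher in newborn PMN-MDSC than in adult PMN-MDSC.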

How the results depend on the processing

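Of the log2 fold changes of the erythroid genes named, 1714 values under alternatives kept their direction and side of the threshold, 193 lost and 22 gained the call, and 6 turned round: newborn over adult M-MDSC for Hbb-bs (-3.49), Alas2 (-3.45) and Slc4a1 (-1.29) in batch 2 alone, and -1.92, -2.09 and -2.02 with matched libraries as a random block. The cause was not tested. In PMN-MDSC the count higher, 29, was 16 without the batch 1 partners of matched libraries and 16 with those libraries summed, 23 with a replicate block, and 26 to 30 with 1 library left out. In PMN-MDSC the all-gene median shifted by -0.172 on the log2 scale with DESeq2's size factors and by -0.237 with upper-quartile scaling, and Tspan33 then lost its call.

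In newborn over adult M-MDSC (8 higher, 2 lower) the counts higher and lower were 1 and 0 with only the groups compared, 17 and 0 in batch 1 alone, 3 higher in batch 2 alone, 17 and 0 with the replicate block, 14 higher with DESeq2, 1 and 0 with limma-voom, 5 and 5 with the random block, and 20 and 0 without replicates 77 and 79. The count lower was 1 with no batch term, 0 with no filter on low counts, and 1 without partners and 1 with summed pairs. Leaving out 1 library gave 5 to 13 higher and 0 to 3 lower. For the difference of the age effects (0 higher, 3 lower), 0 were lower in batch 1 alone and 0 with the replicate block, 1 without partners and 1 with summed pairs, 1 higher and 11 lower in batch 2 alone, 1 and 12 with the random block, and 1 and 13 with a batch term per group. Leaving out 1 library gave 2 to 6 lower, with 6 without newborn M-MDSC replicate 2, and 0 to 0 higher.

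In newborn M-MDSC over newborn PMN-MDSC (0 higher, 14 lower), the count lower was 8 with no batch term, 7 in batch 1 alone, 27 in batch 2 alone, 6 with the replicate block, 28 with limma-voom, 28 with the random block, 28 with a batch term per group, and 4 without replicates 77 and 79. It was 5 to 20 with 1 library left out. The count higher was 1 with the replicate block, limma-voom or without replicates 77 and 79, and 0 to 1 with 1 library left out. In adult M-MDSC over adult PMN-MDSC (2 higher, 2 lower), the counts were 0 and 1 in batch 1 alone, 1 and 0 with the replicate block, 1 and 0 with limma-voom, 0 and 13 without partners, and 0 and 13 with summed pairs. Without partners and with summed pairs, all PMN-MDSC libraries counted as batch 2. The batch term then came from M-MDSC alone, the newborn libraries included. The count higher was 1 with no filter. The count lower was 1 with no batch term, 0 with only the groups compared, 9 in batch 2 alone, 5 with DESeq2, 11 with a batch term per group, and 7 without replicates 77 and 79. Leaving out 1 library gave 1 to 2 higher and 0 to 4 lower.

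The replicate block could be fitted on batch 1 only, whose groups share replicate numbers. Deviations of same-numbered libraries correlated at -0.0875 to 0.268 (5 of 12 above 0.1), and those of other-numbered libraries at -0.268 to 0.109 (1 of 25 above 0.1). These ranges are not independent of each other, because in a group with 2 libraries in batch 1 their deviations are mirror images. Same-numbered adult PMN-MDSC and adult M-MDSC correlated at 0.268 and 0.267. A block within adults alone was not fitted. Since not every same-numbered pair was above 0.1 and no label ties the numbers to a source, the numbers were not taken to pair the libraries. Adult M-MDSC had 1 library in batch 2, and batch 1 libraries held few counts, which limits what can be said of genes under about 1 CPM there.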
